A study of Mus musculus with 8 samples.

Results

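The genes described here are Igf1, which encodes insulin-like growth factor 1 (IGF1), Igf1r, which encodes its receptor, and Igfbp2, Igfbp3, Igfbp4, Igfbp5, Igfbp6 and Igfbp7, which encode binding proteins. They were chosen by gene symbol, 8 of the 53801 genes in the deposited count table. RNA was measured in stromal cells of the small intestine of LTβR-YFP mice, whose yellow fluorescent marker (YFP) is named after the lymphotoxin beta receptor. Cells lacking CD45, a marker of blood cells, and CD31, a marker of endothelium, were sorted into a YFP+ and a YFP- fraction, and 4 libraries of each were sequenced. All 8 libraries come from mice carrying the marker, and the YFP- fraction is the comparison group. The labels do not state how the marker is driven, nor the age of the mice. The sample titles give the opposite YFP sign to the descriptions and genotypes in all 8 samples. The count columns of the deposited table are headed neg and pos and match the descriptions. YFP+ and YFP- below follow the descriptions and genotypes, so if the titles were right every direction would reverse. The comparison asks which RNAs set stromal cells with the marker apart from those without it.

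IGF1 is a secreted growth factor that binds the IGF1 receptor, a tyrosine kinase at the cell surface that signals through insulin receptor substrates to the PI3K and AKT kinases. Most IGF1 outside cells is held by IGF binding proteins, which can keep it from the receptor or carry it to cells, and which proteases such as PAPP-A cut to free it. In the gut, mesenchymal cells are a source of IGF1 and of binding proteins for the epithelium and muscle. IGFBP7 is a relative that binds IGFs weakly and is a matrix-associated protein.

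Of the 8 genes, 7 had enough counts to be tested and 4 of them passed, with 3 higher and 1 lower in YFP+. Over all 16354 genes tested, 11.5% passed, 3.65% as higher and 7.85% as lower. Igfbp3 RNA was 2.01-fold higher in YFP+, and Igfbp6 RNA fell to 0.558 of its YFP- level, while Igfbp4 and Igfbp5 rose by small amounts. Igf1, Igf1r and Igfbp7 did not pass. The test was edgeR's quasi-likelihood test on raw counts with the replicate number as a block, so that each YFP+ library was set against the YFP- library of the same number, and p-values were adjusted over all tested genes by Benjamini-Hochberg with a threshold of 0.05. Without that block edgeR called 0 of the 7, against 4.26% of all tested genes (0.917% higher and 3.34% lower), with 2 at an unadjusted p under 0.05 (Igfbp3 and Igfbp6). Without the block DESeq2 and limma-voom each called 2, again Igfbp3 and Igfbp6, against 1094 and 665 of all 16354 tested genes. With the block but without replicate 2 or replicate 3 (both libraries, or any single one of them) the count was 2. These were also Igfbp3 and Igfbp6. Over all genes, the same settings called 1178 to 1606 of 16534 to 17011 tested. The YFP+ and YFP- values did not overlap for 2 of the 7, Igfbp3 and Igfbp6, where 9.64% of all tested genes were so separated.

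**Figure D1:**
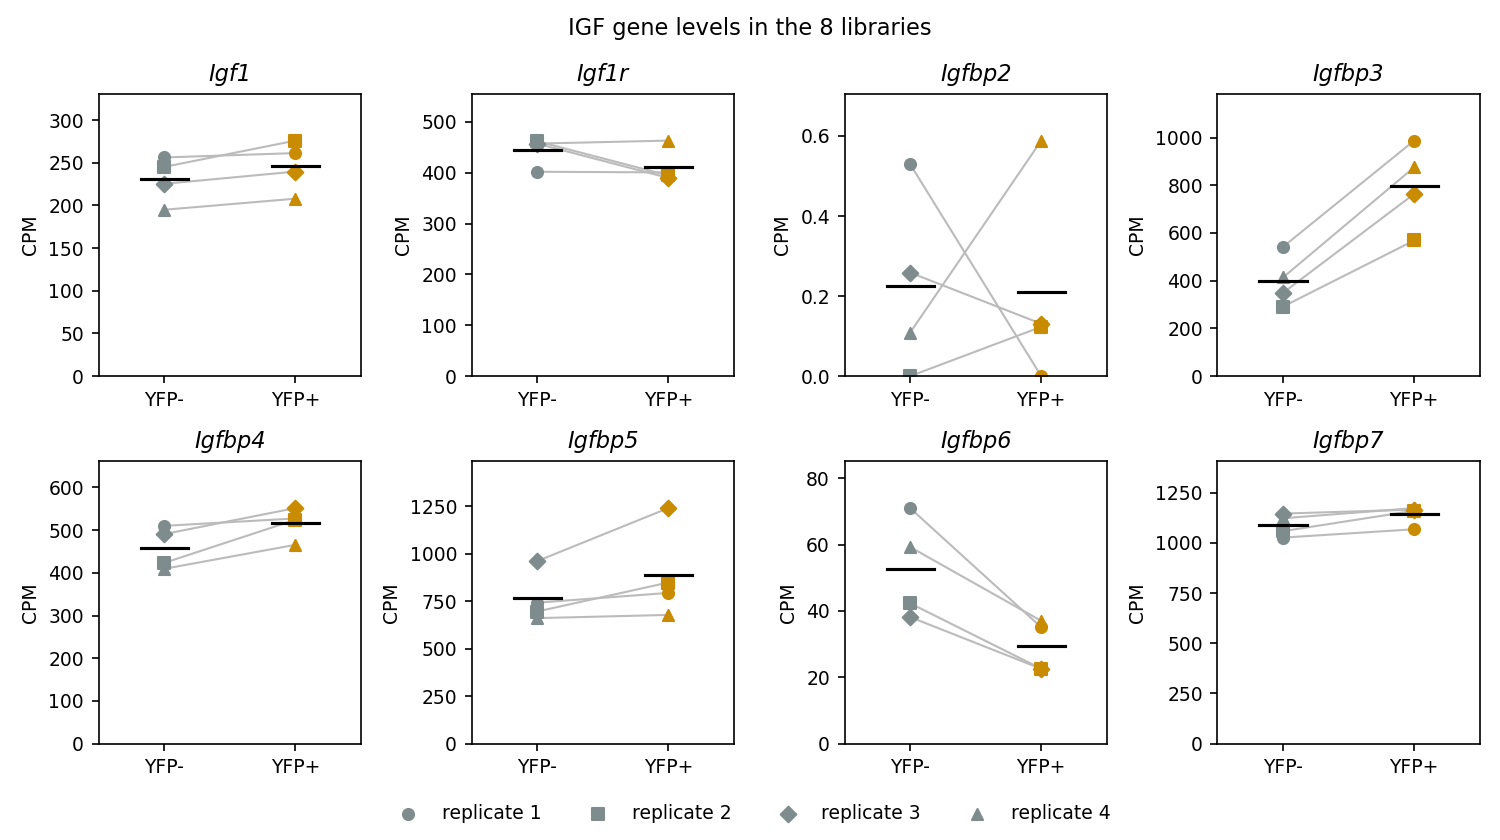
CPM (linear axes from 0) of the 8 genes in the 4 YFP- and 4 YFP+ libraries. Each marker shape is a replicate number, grey lines join libraries of the same number and black bars are group means. All 4 lines rise for Igf1, Igfbp3, Igfbp4, Igfbp5 and Igfbp7, most steeply for Igfbp3, and all 4 fall for Igfbp6.

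Levels are given as CPM, the counts of a gene scaled to a common library size. Library totals ran from 23272858 to 29829232 counts, and the 8 genes together held 0.319% to 0.359% of counts in YFP- libraries and 0.393% to 0.448% in YFP+ libraries. Labelled stroma was checked against its markers. The 6 fibroblast markers (Pdgfra, Col1a1, Col1a2, Col3a1, Dcn and Lum) summed to 39069 to 46158 CPM in YFP- and 33797 to 37589 CPM in YFP+, and 5 of the 6 fell. Ptprc, which encodes CD45, averaged 2.38 CPM in YFP- and 2.29 CPM in YFP+, and Pecam1, which encodes CD31, 7.45 and 4.65 CPM. Other cell types moved with the fractions as well. Glial markers summed to 147 to 240 CPM in YFP- and 9.71 to 12.9 CPM in YFP+ (9 of 10 fell), epithelial markers to 42.3 to 91.0 and 23.9 to 28.1 CPM (5 of 11 fell), and endothelial markers to 65.5 to 95.5 and 45.1 to 56.3 CPM (3 of 7 tested fell). Smooth muscle markers summed to 156 to 406 CPM in YFP- and 325 to 780 CPM in YFP+, and 6 of 7 rose. Mural markers summed to 1312 to 1435 and 1454 to 1597 CPM (2 rose and 2 fell of 6), and markers of interstitial cells of Cajal to 183 to 223 and 246 to 362 CPM (2 of 4 rose). Blood cell markers summed to 77.5 to 275 and 38.4 to 321 CPM, and edgeR called 0 of 6 tested, with 1 at an unadjusted p under 0.05 and 0 by DESeq2 and limma-voom. Itgam, one of them, was listed at 0 in all libraries. Mesothelial markers summed to 1.02 to 2.63 and 0.360 to 1.42 CPM, and 1 of 4 could be tested, which did not pass. With the block, DESeq2 called 7 and limma-voom 8 of the 11 epithelial markers, and both gave the edgeR counts for the other marker lists. Over all tested genes, edgeR called 11.5% with the block (3.65% higher and 7.85% lower) and 4.26% without it. Without the block edgeR called 2 of the 6 fibroblast markers, 9 of 10 glial, 5 of 11 epithelial and 1 of 7 endothelial. It also called 2 of 7 smooth muscle, 3 of 6 mural and 1 of 4 markers of interstitial cells of Cajal. The part of these other cells in the IGF results was not tested. In sorted pools, fewer cells of a type and less RNA per cell cannot be told apart.

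Igf1 (ENSMUSG00000020053, chromosome 10 from 87858265 to 87937042, plus strand, GRCm38) had 256, 245, 225 and 195 CPM in YFP- replicates 1 to 4 and 261, 276, 240 and 208 CPM in YFP+ replicates 1 to 4. The groups overlapped over most of their range, and replicate 4 was the lowest library in both. The mean was 230 ± 26.9 CPM over the YFP- libraries and 246 ± 29.6 CPM over the YFP+ libraries (SD, n = 4 each). The YFP+ library was higher in 4 of 4 pairs. The log2 fold change of Igf1 was 0.10 with an SE of 0.05 and did not pass (edgeR adjusted p = 0.300). Its 95% interval ran from 0.990-fold to 1.15-fold. Among 8683 other genes of at least 10 CPM, the 3 whose log2 CPM followed that of Igf1 most closely over the 8 libraries were Dzip1 (Pearson's r 0.97), Slc15a4 (0.96) and Tagln, an actin-binding protein of smooth muscle (0.95). These libraries share their fractions and their pairing, so the r values are descriptions.

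Igf2, the gene of the other IGF, was listed at 0 counts in every library, 0 of 207955660 counts in all, which at a limit of 3 counts allows up to 0.0144 CPM over the 8 libraries as far as counting error goes. In the annotation 3596 of its 5723 exonic bases are shared with another protein-coding gene on the same strand, which had 1 count. How reads in shared sequence were assigned is not stated.

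The receptor gene Igf1r (ENSMUSG00000005533, chromosome 7 from 67952827 to 68233668, plus strand) had 402, 462, 457 and 457 CPM in YFP- replicates 1 to 4 and 401, 395, 390 and 463 CPM in YFP+ replicates 1 to 4. YFP- replicate 1 lay with the low YFP+ libraries and YFP+ replicate 4 with the high YFP- libraries, so the groups overlapped. The means were 444 ± 28.5 CPM and 412 ± 34.4 CPM (SD, n = 4 each). The log2 fold change was -0.11 (SE 0.05, edgeR adjusted p = 0.221), with a 95% interval from 0.857-fold to 1.00-fold, and YFP+ was higher in 1 of 4 pairs.

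Igfbp3, whose protein is the main IGF carrier of the circulation and also acts locally in tissues, differed most among the 7 tested genes. Igfbp3 (ENSMUSG00000020427, chromosome 11 from 7206086 to 7213923, minus strand) had 542, 292, 349 and 414 CPM in YFP- replicates 1 to 4 and 987, 569, 764 and 875 CPM in YFP+ replicates 1 to 4. The lowest YFP+ library was above the highest YFP- library. In both fractions the order of the libraries by number was the same, with replicate 1 highest, then 4, 3 and 2. The mean was 399 ± 108 CPM over the YFP- libraries and 799 ± 178 CPM over the YFP+ libraries (SD, n = 4 each). The fitted log2 fold change was 1.01 with an SE of 0.05, and the edgeR adjusted p was 6.07e-13. Within the pairs the log2 differences were 0.86, 0.96, 1.13 and 1.08, a spread of 0.12 (SD), which is small beside the spread of the libraries within a fraction. Without the block the log2 fold change was 1.00 and the edgeR adjusted p was 0.0509. Among the 8995 tested genes whose mean reached 10 CPM, Igfbp3 had the rise of rank 8, and it ranked 11 by p among all 16354 tested.

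**Figure D2:**
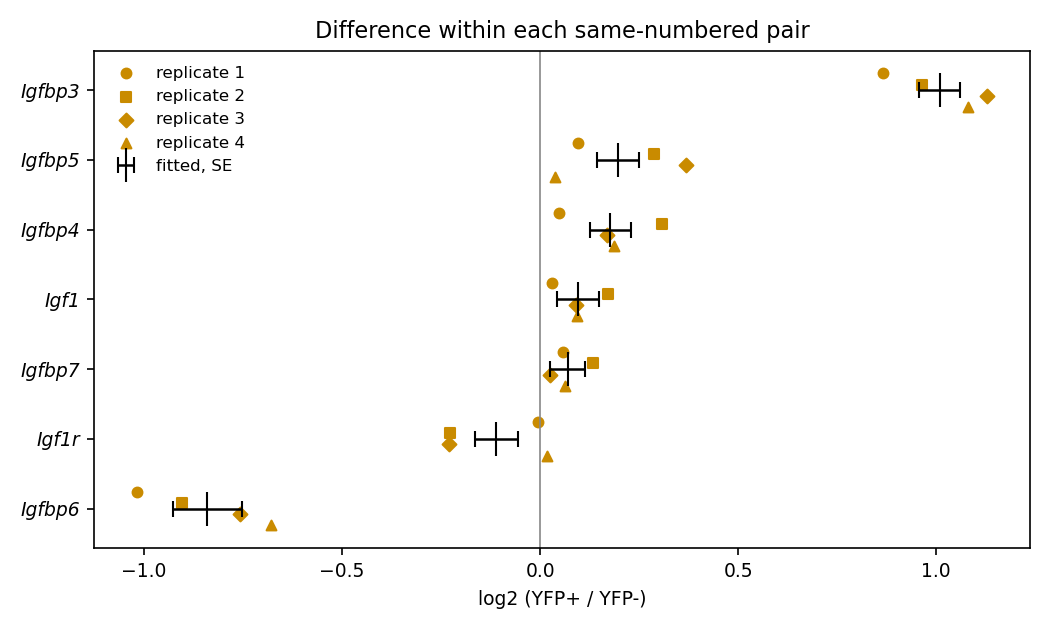
Log2 ratio of YFP+ to YFP- CPM within each same-numbered pair (marker shapes) for the 7 tested genes, with the fitted log2 fold change and its SE in black. Igfbp3 lies between 0.86 and 1.13 in all 4 pairs and Igfbp6 between -1.02 and -0.68.

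By the same measure of likeness as for Igf1, the genes closest to Igfbp3 over the 8 libraries were Frzb, a secreted Wnt antagonist (r 0.98), P2rx1, an ATP-gated channel (0.98), and Gbgt1, a glycosyltransferase (0.98). From YFP- to YFP+ the average level went from 37.6 to 54.5 CPM for Frzb, from 18.3 to 33.7 CPM for P2rx1 and from 19.9 to 25.1 CPM for Gbgt1. With each fraction's mean removed, r with Igfbp3 was 0.94, 0.93 and 0.93. The 3 genes were chosen for their r over these same libraries, so these values are descriptions.

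Igfbp6, whose protein prefers IGF2 over IGF1, was the 1 gene of the 7 that fell. Igfbp6 (ENSMUSG00000023046, chromosome 15 from 102144362 to 102149511, plus strand) had 71.0, 42.3, 38.2 and 59.3 CPM in YFP- replicates 1 to 4 and 35.0, 22.6, 22.5 and 37.0 CPM in YFP+ replicates 1 to 4. The groups were separated by a narrow gap, from 37.0 CPM in the highest YFP+ library to 38.2 CPM in the lowest YFP- library. Replicates 1 and 4 were the higher libraries in both fractions, as they were for Igfbp3. The mean was 52.7 ± 15.2 CPM over the YFP- libraries and 29.3 ± 7.81 CPM over the YFP+ libraries (SD, n = 4 each). The fitted log2 fold change was -0.84 with an SE of 0.09, and the edgeR adjusted p was 1.37e-07. The 4 pairs gave -1.02, -0.91, -0.76 and -0.68. Without the block the log2 fold change was -0.85 and the edgeR adjusted p was 0.122.

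Igfbp5, whose protein binds the matrix as well as IGFs, rose slightly. Igfbp5 (ENSMUSG00000026185, chromosome 1 from 72857932 to 72874884, minus strand) had 742, 696, 961 and 661 CPM in YFP- replicates 1 to 4 and 794, 848, 1240 and 678 CPM in YFP+ replicates 1 to 4. Replicate 3 was far above the others in both fractions, and the groups overlapped. The log2 fold change was 0.20 (SE 0.05, edgeR adjusted p = 0.0149), with YFP+ higher in 4 of 4 pairs by 0.04 to 0.37. The call was lost without replicate 3 (edgeR adjusted p = 0.240) and without replicate 2 (0.0518), and also without any single library of those numbers. Without the block the edgeR adjusted p was 0.665.

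Igfbp4, whose protein is a substrate of the protease PAPP-A, gave a rise of like size. Igfbp4 (ENSMUSG00000017493, chromosome 11 from 99041244 to 99054392, plus strand) had 510, 423, 491 and 409 CPM in YFP- replicates 1 to 4 and 527, 524, 552 and 466 CPM in YFP+ replicates 1 to 4. YFP+ replicate 4 lay inside the YFP- range and the other 3 above it. The log2 fold change was 0.18 (SE 0.05, edgeR adjusted p = 0.0224), with YFP+ higher in 4 of 4 pairs by 0.05 to 0.31. The call was lost without replicate 2, 3 or 4 (edgeR adjusted p = 0.0908, 0.121 and 0.0816), and without any single library of those numbers. Without the block the edgeR adjusted p was 0.395.

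The sequences before the start sites of the 4 called genes are shown as descriptions. Each is the 250 bases before the RefSeq start (GRCm38.p6), 5′ to 3′ on the gene's strand. Capitals mark, on either strand, the TATA box letters TATAAA, the related letters TATATA, the variant spelled TATTTA, the GC box letters GGGCGG and the CCAAT box. No match overlaps a match of another motif. The windows are chr11:7213924-7214173 (minus) for Igfbp3, chr11:99040994-99041243 (plus) for Igfbp4, chr1:72874866-72875115 (minus) for Igfbp5 and chr15:102143936-102144185 (plus) for Igfbp6.
Igfbp3: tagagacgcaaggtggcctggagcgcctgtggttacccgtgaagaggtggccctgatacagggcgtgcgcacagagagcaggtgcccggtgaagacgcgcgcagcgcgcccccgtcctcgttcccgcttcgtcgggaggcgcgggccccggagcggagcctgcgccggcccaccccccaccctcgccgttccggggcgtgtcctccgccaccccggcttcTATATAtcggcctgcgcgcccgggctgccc
Igfbp4: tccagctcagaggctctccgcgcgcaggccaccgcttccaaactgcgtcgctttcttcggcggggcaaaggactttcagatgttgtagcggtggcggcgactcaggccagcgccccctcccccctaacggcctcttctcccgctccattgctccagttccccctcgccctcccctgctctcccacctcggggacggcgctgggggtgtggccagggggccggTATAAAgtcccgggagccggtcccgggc
Igfbp5: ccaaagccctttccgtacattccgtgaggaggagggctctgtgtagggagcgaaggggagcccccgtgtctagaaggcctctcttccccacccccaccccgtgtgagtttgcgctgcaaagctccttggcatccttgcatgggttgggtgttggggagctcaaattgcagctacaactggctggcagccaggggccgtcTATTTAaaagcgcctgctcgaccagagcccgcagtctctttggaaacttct
Igfbp6: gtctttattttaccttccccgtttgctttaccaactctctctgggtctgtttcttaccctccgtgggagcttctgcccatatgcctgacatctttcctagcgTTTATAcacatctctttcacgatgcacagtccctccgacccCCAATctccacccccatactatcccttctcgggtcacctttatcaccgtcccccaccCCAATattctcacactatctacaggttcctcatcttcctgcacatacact
Igfbp3 holds TATATA beginning 30 bases before its start, Igfbp4 holds TATAAA at 28 bases and Igfbp5 holds TATTTA at 51 bases. GENCODE starts Igfbp5 19 bases further upstream than RefSeq, and from that start TATTTA lies at 32 bases and the end of the printed window is transcribed. Igfbp6 holds CCAAT at 107 and 50 bases and TATAAA on the opposite strand at 148 bases. GENCODE starts Igfbp6 176 bases further downstream than RefSeq. The bases checked after its RefSeq start lay in no GENCODE transcript of the gene, unlike those of Igfbp3, Igfbp4 and Igfbp5. The Igfbp6 window may therefore not compare like for like with the windows of those genes. The Igfbp6 window is 49.6% G or C, against 73.2%, 69.2% and 58.8% for Igfbp3, Igfbp4 and Igfbp5. Among the genes not called, the windows are 52.8% for Igf1, 77.6% for Igf1r, 74.0% for Igfbp7 and 67.2% and 56.4% for Igfbp2. The bases checked after the Igf1r start lay in no GENCODE transcript either, and GENCODE starts Igf1r 570 bases further downstream. The Igf1 window and the 56.4% window of Igfbp2 lie inside the gene as GENCODE places it. The windows of Igf1 and Igf1r and that Igfbp2 window may therefore not compare like for like either. The median over all 32851 such windows is 52.4%. Of all windows, TATAAA lies in 12.4%, TATATA in 5.25%, TATTTA in 12.7%, GGGCGG in 32.7% and CCAAT in 33.8%. These are letter matches and not known sites. Whether the letters or the G and C content go with the direction of change was not tested.

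Igfbp7 had the highest level per length of the 8 genes, as given below, and differed little between the fractions. Igfbp7 (ENSMUSG00000036256, chromosome 5 from 77349240 to 77408041, minus strand) had 1027, 1059, 1146 and 1123 CPM in YFP- replicates 1 to 4 and 1068, 1161, 1166 and 1174 CPM in YFP+ replicates 1 to 4. YFP+ replicate 1 lay among the YFP- libraries and the other 3 just above them. The log2 fold change was 0.07 (SE 0.05, edgeR adjusted p = 0.391), with a 95% interval from 0.984-fold to 1.12-fold. Its libraries varied by 4.34% in YFP+ and 5.10% in YFP- (SD over mean), the least of the 8 genes, where Igfbp3 varied by 22.3% and 26.9%. Of its exonic bases, 85 are shared with Polr2b on the opposite strand.

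Igfbp2, whose protein is a carrier found in fetal and epithelial tissues among others, was close to absent. Igfbp2 (ENSMUSG00000039323, chromosome 1 from 72824503 to 72852474, plus strand) had 12, 0, 6 and 3 counts in YFP- replicates 1 to 4 and 0, 3, 4 and 17 counts in YFP+ replicates 1 to 4. No library reached 1 CPM, and the gene did not pass the filter on low counts. A difference was not detectable at this depth.

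Igfbp2 and Igfbp5 lie tail to tail on chromosome 1, with 5457 bases between their 3′ ends, and had 45 and 173454 counts over the 8 libraries. Igfbp1, which encodes another carrier, and Igfbp3 lie tail to tail on chromosome 11, 3539 bases apart, and had 1 and 127783 counts. No other annotated gene lies between the genes of either couple. In both, the plus-strand gene was near 0 and the minus-strand gene was among the abundant ones.

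Levels of different genes can be compared only per length, so CPM were divided by the exonic length of each gene in kilobases. That length joins all annotated exons of a gene and can exceed that of the RNA forms present, which were not determined. The order of genes with close values may depend on it. On this scale, Igfbp7 stood at 901 ± 46.0 CPM per kilobase over the YFP- libraries and 945 ± 41.0 over the YFP+ libraries (SD, n = 4 each), above every library of the next gene. In YFP+ Igfbp3 followed with 255 ± 57.0 CPM per kilobase, then Igfbp5 with 148 ± 40.6 and Igfbp4 with 117 ± 8.26. The ranges of Igfbp3 and Igfbp5 overlapped, and so did those of Igfbp5 and Igfbp4. In YFP- the same 3 genes were at 128 ± 34.4, 127 ± 22.5 and 104 ± 11.2 CPM per kilobase and overlapped from one to the next. Igfbp6 was at 47.4 ± 13.7 in YFP-, above every library of Igf1r (26.5 ± 1.70) and Igf1 (23.3 ± 2.71). In YFP+ Igfbp6 was at 26.3 ± 7.02 and its range overlapped with that of Igf1 (24.9 ± 2.99), which overlapped with that of Igf1r (24.5 ± 2.05).

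Of the summed CPM per kilobase of the 6 binding proteins, Igfbp3 made up 7.64% to 13.1% in YFP- libraries and 12.8% to 21.3% in YFP+ libraries. Igfbp7 made up 64.1% to 71.9% and 59.6% to 67.5%, and Igfbp6 made up 2.51% to 4.82% and 1.30% to 2.21%. Igfbp4 held a similar share in both fractions, 7.94% ± 0.697 of the YFP- and 7.86% ± 0.579 of the YFP+ sum (SD, n = 4 each). Igfbp5 held 9.72% ± 1.42 and 9.90% ± 2.43. The sum itself was 1219 to 1365 CPM per kilobase in YFP- libraries and 1422 to 1560 in YFP+ libraries. The mean CPM per kilobase of Igfbp7 and Igfbp4 was not lower in YFP+, so their shares do not show how their levels differ. The share of Igfbp3 was larger in the YFP+ library of every pair, although YFP+ replicate 2 and YFP- replicate 1 overlapped.

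**Figure D3:**
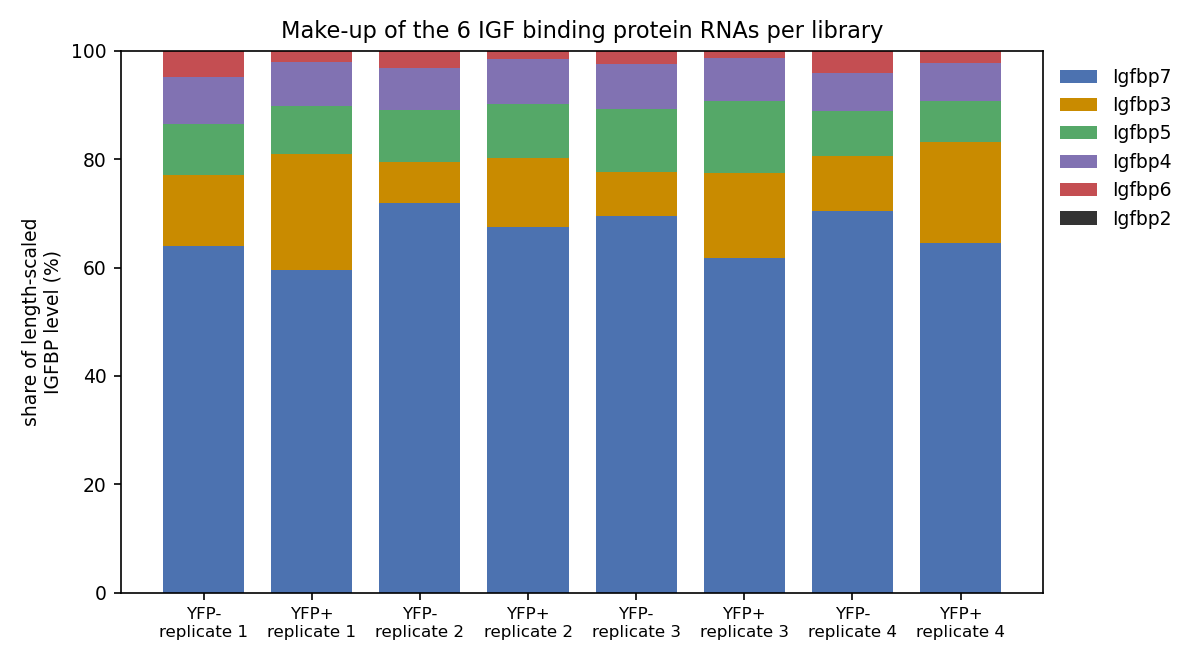
Share of each binding protein gene in the summed CPM per kilobase of the 6, as stacked bars from 0 to 100%, for the 8 libraries ordered by replicate number. The Igfbp3 band is wider in the YFP+ bar of each pair and the Igfbp6 band is narrower, while the Igfbp2 band is too thin to be seen.

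Other genes of the pathway were taken from 7 lists of 49 genes. Among all tested genes, 3.65% rose and 7.85% fell. Of the other ligands and receptors, Insrr, a receptor of the insulin receptor family, was the 1 of 3 tested that rose. It had 5.87, 2.93, 7.50 and 5.94 CPM in YFP- replicates 1 to 4 and 9.45, 4.97, 12.4 and 6.68 CPM in YFP+ replicates 1 to 4 (log2 fold change 0.58, edgeR adjusted p = 0.0492). The groups overlapped, and limma-voom called 0 of these 3 genes. The call for Insrr was also lost without replicate 1, 2 or 3 (edgeR adjusted p = 0.176, 0.104 and 0.245) and without any single library of those numbers. The log2 fold changes of the insulin receptor gene Insr and of Igf2r, the clearance receptor for IGF2, were both -0.12 (edgeR adjusted p = 0.210 and 0.188). None of the carriers Igfbp1, Igfbpl1 and Igfals had enough counts for a test.

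Of the 6 tested genes for proteases that cut binding proteins and for inhibitors of those proteases, edgeR called 0, with 2 at an unadjusted p under 0.05, and DESeq2 and limma-voom called 0. Pappa, which encodes PAPP-A, had the most counts of them. Its levels were 246, 129, 150 and 460 CPM in YFP- replicates 1 to 4 and 297, 93.3, 128 and 508 CPM in YFP+ replicates 1 to 4. Replicates 4 and 1 were high and replicates 2 and 3 low in both fractions, as for Igfbp3 and Igfbp6. The log2 fold change of Pappa was -0.07 (SE 0.14, edgeR adjusted p = 0.841), and its sign turned without the block (0.06) and without replicate 2 (0.07). Of the 5 genes on the growth hormone side edgeR called 0, none had an unadjusted p under 0.05, and DESeq2 and limma-voom called 0. Ghr, the growth hormone receptor gene, averaged 462 ± 53.4 CPM over the YFP- libraries and 460 ± 43.6 CPM over the YFP+ libraries (SD, n = 4 each).

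Of 8 tested genes for adaptors and inhibitors of the receptor 4 fell and 0 rose, with a list median of -0.16 on the log2 scale against 0.01 over all tested genes, of which 7.85% fell and 3.65% rose. DESeq2 and limma-voom each called 3 of these 8, and edgeR without the block called 1. Irs2, an insulin receptor substrate, had 291, 240, 281 and 306 CPM in YFP- replicates 1 to 4 and 262, 198, 245 and 260 CPM in YFP+ replicates 1 to 4. It was lower in YFP+ in each of the 4 pairs, though the groups overlapped (log2 fold change -0.22, edgeR adjusted p = 0.00593). The Irs2 call was lost without YFP- replicate 3 (edgeR adjusted p = 0.0511) and without YFP- replicate 4 (0.0550). Grb14, an adaptor that restrains insulin receptor family kinases, had 6.67, 15.2, 8.88 and 5.98 CPM in YFP- replicates 1 to 4 and 0.335, 0.452, 0.327 and 0.242 CPM in YFP+ replicates 1 to 4. Its log2 fold change, -4.69 with an SE of 0.30 (edgeR adjusted p = 2.88e-11), was far larger than that of any other gene of these lists. Grb14 was highest in YFP- replicate 2, and the glial markers, with 9 of 10 lower, moved the same way, and their part in it was not tested. The other called genes of this list were Irs1 (-0.18, edgeR adjusted p = 0.0464) and the docking protein gene Gab1 (-0.25, 0.0172), both named after their values were seen.

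Of 16 genes of the PI3K and AKT relay, Pik3cb, a catalytic subunit of PI3K, was the 1 that fell, from 6.09 ± 1.45 CPM to 3.48 ± 1.35 CPM (SD, n = 4 each; log2 fold change -0.86, edgeR adjusted p = 0.0282). YFP+ replicate 1 was above YFP- replicate 1, so 3 of 4 pairs showed the fall. The Pik3cb call was lost without replicate 2, 3 or 4 (edgeR adjusted p = 0.114, 0.189 and 0.140) and without any single library of those numbers. The list median was 0.01. Of the 3 FOXO genes, transcription factors that AKT keeps out of the nucleus, Foxo1 and Foxo3 fell, where 7.85% of all tested genes did, and 1 of the 3 passed without the block. Foxo1 had 178, 206, 177 and 194 CPM in YFP- replicates 1 to 4 and 146, 151, 125 and 160 CPM in YFP+ replicates 1 to 4. The groups did not overlap, the log2 fold change was -0.38 (SE 0.06, edgeR adjusted p = 4.29e-05), and the call held without the block (0.0232). Foxo3 had 399, 312, 371 and 454 CPM and 381, 287, 279 and 414 CPM in the same order, and the groups overlapped (log2 fold change -0.18, edgeR adjusted p = 0.0345). Without replicate 3 or 4, or any single library of those numbers, Foxo3 did not pass (edgeR adjusted p = 0.403 and 0.0863 without the pairs). Foxo1 shares 674 exonic bases and Irs2 shares 162 with genes on the opposite strand. Without the block, Grb14 and Foxo1 were the 2 genes of the 49 that passed in edgeR.

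**Figure D4:**
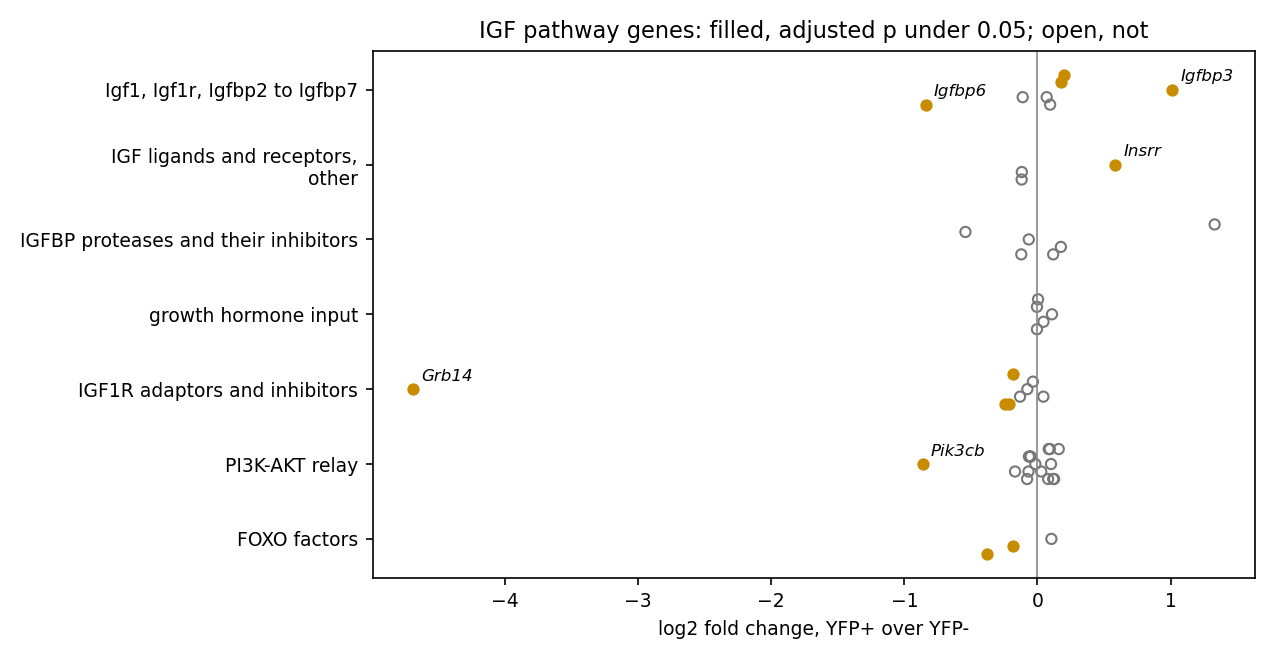
Fitted log2 fold change, YFP+ over YFP-, of the tested genes of the IGF family and its pathway lists. Filled points passed at an adjusted p under 0.05 and open points did not, and called genes beyond 0.5 in either direction are named. Most points lie near 0, with Igfbp3 at 1.01, Igfbp6 at -0.84 and Grb14 at -4.69.

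The authors' deposited table gives log2 fold changes of 1.02 for Igfbp3, -0.83 for Igfbp6, 0.20 for Igfbp5 and 0.18 for Igfbp4, with adjusted p-values of 1.13e-72, 5.8e-14, 0.00884 and 0.00872. In the same authors' deposited table Igf1 (adjusted p = 0.297), Igf1r (0.355), Igfbp7 (0.342) and Igfbp2 (0.961) did not pass. These values come from the same libraries and are not separate support. With no block, DESeq2 on these counts gave an adjusted p of 0.728 for Igfbp5 and 0.348 for Igfbp4.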

How the data were processed

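Per the submitters' processing notes, the tools were cutadapt 3.4, STAR 2.7.3a and featureCounts 2.0.1, followed by DESeq2, on GRCm38 (mm10). The libraries were stranded, per the labels' protocols, and the strand setting of the counting was not stated. The authors deposited raw counts per gene, and the deposited table also gives log2 fold changes and adjusted p-values for YFP+ over YFP-.

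The analysis used edgeR 4.0.16 in R 4.3.3 (TMM scaling, filterByExpr, robust quasi-likelihood F test, replicate number as a block). CPM used TMM-scaled totals. The SE is the absolute log2 fold change over the square root of F, and 95% intervals use the t distribution with the degrees of freedom of the test. Equal replicate numbers were taken as pairs by plan, although no label says what they share. Over 5200 genes, deviations from the group means correlated at 0.60, 0.64, 0.38 and 0.57 for equal numbers and at -0.42 to 0.05 otherwise. Deviations from a group mean cancel within the group, which by itself lowers the values for unequal numbers. No label names separate animals, so the p-values rest on sample-to-sample spread that may be only technical.

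The members and gene lists were chosen with earlier results of these data known. Each pathway list contributed at most 2 called genes in each direction, ranked by p, or its most abundant gene if none passed. Likeness took the 3 genes of highest Pearson's r among genes of 10 CPM or more, without predicted genes, pseudogenes and antisense genes, for Igf1 and for the other member of smallest p. Positions and exonic lengths are from GENCODE mouse release 21 (GRCm38) and start-site sequences from RefSeq (GRCm38.p6), where all 8 genes matched. Alternatives were no block, RLE and upper-quartile scaling, other filters, DESeq2 1.42.0, limma-voom (limma 3.58.1), leaving out mitochondrial and ribosomal RNA, and leaving out libraries. DESeq2 and limma-voom with no block were chosen after seeing the data.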

Additional observations from a re-analysis of the deposited data

Results flagged for a closer look

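The values were looked at in 32 sets of 4, covering the 8 genes and the 8 named pathway genes in each fraction. Of these sets, 3 had a library far from the other 3 of its fraction. Chance gives about 1 in 20, or 1.6 of the 32 sets. Igf1r was high in YFP+ replicate 4 (463 CPM) and low in YFP- replicate 1 (402 CPM). Igfbp7 was low in YFP+ replicate 1 (1068 CPM).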

How the results depend on the processing

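Igfbp3 and Igfbp6 kept their direction under all 22 alternatives and lost the call in 1 of them, edgeR with no replicate block (adjusted p = 0.0509 and 0.122). With the block, 12 settings that left out a replicate number or a library gave 0.97 to 1.07 for Igfbp3 and -0.89 to -0.77 for Igfbp6. Of the 8 genes, 4 passed in the main test, 0 without the replicate block, 2 with DESeq2 and 2 with limma-voom without it, and 2 to 4 when replicates or libraries were left out, 2 being without number 2 or 3 or any library of them. Over all genes, 1880 passed with the block, 697 without it, 1094 with DESeq2 and 665 with limma-voom without it, and 1178 to 1606 with replicates or libraries left out, the lowest without YFP+ replicate 3 and the next without the pair numbered 3 (1182) and YFP- replicate 3 (1195). Of the pathway lists, 8 genes passed with the block, 2 without it in each of the 3 tools, and 2 to 8 with replicates or libraries left out, the lowest without YFP- replicate 3 and 3 to 5 without the pair numbered 3 or 4, YFP+ replicate 2, 3 or 4, or YFP- replicate 4. Igfbp4 lost its call in 9 and Igfbp5 in 6 of the 12 settings with fewer libraries, which also have fewer samples. Pappa and Ghr, neither of which was called, changed sign. Pappa gave 0.058 without the replicate block and 0.063 with DESeq2 without it, and -0.18 to 0.074 with libraries left out. Ghr gave 1.8e-04 with RLE scaling and with DESeq2, 9.5e-04 with upper-quartile scaling, 0.0037 with no filter, 0.0042 without mitochondrial and ribosomal RNA genes, and -0.093 to 0.082 with libraries left out. The cause was not tested. Depth limits Igfbp2, which had 45 counts in all 8 libraries. Igf2 was at 0, with both depth and the unstated assignment of reads in its shared sequence as limits.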
